A study of Mus musculus with 16 samples.

Results

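Bone marrow stromal cells of wild type mice were grown in osteogenic culture, and the transcripts of these cultures are described here at day 7. The 8 cultures were all of the samples labelled wild type, out of 16 samples in the series, and the other 8, from cultures with a conditional knock-out of Hdac3, enter no value below. The mice had a mixed CD1/C57BL6 background. Total RNA was taken with TRIzol, labelled with biotin and measured on an Illumina mouse expression array, 1 array per sample. The labels do not say whether each sample was a separate culture or animal, whether the wild type cells carried a Cre transgene, how many animals gave the cells, their sex, whether marrow was pooled, or what the numbers in the sample titles mean. The samples are called cultures here, n counts arrays, and they are named by those numbers, as WT5, WT13, WT14, WT21, WT22, WT30, WT42 and WT44.

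Marrow that adheres to plastic gives rise to stromal progenitors, which form bone matrix in osteogenic medium and can also become fat cells. Osteoblast maturation passes from collagen production to the expression of mineral-binding proteins such as bone sialoprotein (Ibsp) and osteocalcin (Bglap). Macrophages of the marrow adhere too and commonly persist in such cultures, so RNA of a whole culture mixes both lineages. In such a mixture, fewer cells of a type and less RNA per cell cannot be told apart.

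Each value is the log2 of an intensity that the authors deposited after normalization, and the 8 arrays have almost equal medians, between 97.1 and 97.2 on the linear scale. Receptors of smell and pheromone neurons served as a measure of background. The 95th percentile of their 1303 probes, called the background ceiling, lay between 6.53 and 6.58 on the log2 scale. A probe at or below it is read as not above background on that array, which bounds the signal of that probe and does not show that the transcript was absent. Between 8960 and 9289 of 16593 genes were above the ceiling on each array. The number of arrays limits the precision of every value.

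The cultures did not vary independently of their title numbers. Neighbouring numbers fall into 5 runs, WT5, WT13 with WT14, WT21 with WT22, WT30, and WT42 with WT44. Over all probes Pearson's r was 0.991 to 0.996 within the 3 runs that hold a pair and 0.977 to 0.993 in the 25 other pairs of arrays. WT13 and WT14 stood apart from the other 6 in many genes, so the spread of the variable genes, groups and lists and the marker correlations are also given without them. They also differed in some Y-linked genes. Eif2s3y, a translation initiation factor gene of the Y chromosome, was at 5.89 and 6.17 in these cultures, below the ceiling, and at 8.99 to 9.89 in the other 6. Kdm5d, a Y-linked histone demethylase gene, was likewise at 6.32 and 6.25 against 6.96 to 7.94. Uty, also Y-linked, did not set them apart. It was just above the ceiling in every culture, at 6.65 in WT13, 6.66 in WT14, 6.66 in WT21 and up to 6.98 in WT5. A probe this close to background cannot show whether WT13 and WT14 held the transcript. Xist, the RNA of the inactive X chromosome, was highest in WT14 and WT13, at 7.95 and 7.82, but was above the ceiling in every culture other than WT5. The part of these differences in the results below was not tested.

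Of the 16593 genes, 7971 (48.0%) were above the background ceiling in all 8 cultures and 6149 (37.1%) in none. Another 2473 genes passed it in some cultures. Among the 1197 receptor genes that set the ceiling, 22 were above it in all 8 arrays. These shares are the background against which the lineage lists below are read.

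Ribosomal and cytoskeletal genes were among those with the brightest probes. The brightness of a probe depends on its own sequence as well as on the transcript, so the order below ranks probes and does not measure amounts of RNA. The 20 brightest genes were, in order, Rplp1, Acta2, Rps2, Actb, Rpl41, Tubb5, Fth1, Lyz1, Hspa8, Rps20, Lyz2, Rps12, Rpl38, Anxa2, Gpnmb, Ctsb, Rpl3, Atp5b, Ccn2 and Tuba1b. Ribosomal protein genes took 7 of the first 20 places, 16 of the first 50 and 39 of the first 200. Rplp1, the acidic stalk protein of the large subunit, had a mean of 15.18 with an SD of 0.058 over 8 cultures.

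Cytoskeletal genes among the 20 included Acta2 of the smooth muscle and pericyte list. Of 10 measured genes of that list, 6 were above the ceiling in all 8 cultures. Lmod1 passed it in 5, Myh11 in WT30 alone, and Cnn1 and Rgs5 in none. Acta2, smooth muscle actin, which myofibroblasts and stromal cells in culture also make, ran from 15.08 in WT14 to 15.21 in WT21. Actb (cytoplasmic actin), Tubb5 and Tuba1b (tubulins) stood beside it. Ccn2, a matricellular growth factor of connective tissue, had the widest spread of the 20, from 14.32 in WT42 to 15.08 in WT21, a 1.70-fold range.

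Some of the 20 are known from macrophages and lysosomes, although the macrophage and leukocyte lists gave only 1 of the 20 (Lyz2) and 3 of the first 200. Lysozyme genes Lyz1 and Lyz2, Gpnmb, a glycoprotein of macrophages and osteoblasts, Ctsb, the lysosomal protease cathepsin B, and Fth1, the heavy chain of ferritin, were all among the 20. In the first 200, the lists below contributed Acta2, Lyz2, Bgn, Laptm5, Timp1, Lox, Lpl, Sparc, Col5a1 and C1qb. Of these, Bgn (biglycan), Lox (lysyl oxidase), Sparc (osteonectin), Col5a1 (a type V collagen chain) and Timp1 (a metalloproteinase inhibitor) belong to the matrix. None of the 20 brightest genes differed between the 5 runs (limma F test, adjusted p under 0.05), and 2 had an unadjusted p under 0.05. Over all 25697 probes, 2389 did (9.30%), and 5486 had an unadjusted p under 0.05. The probes of the 20 lay near the top of the intensity scale, which ended at 37892 on each array.

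Most osteoblast genes were above background in every culture. Of 15 measured genes of the osteoblast list, 11 were above the ceiling in all 8, which is 73.3% against the 48.0% of all genes. The other 4 passed it in some cultures. These were Dlx3 and Dlx5, homeodomain factors, Ifitm5, a membrane protein of mineralizing osteoblasts, and Phospho1, a phosphatase of early mineralization. With a ceiling of 2 times the median of each array, 6 of the 15 passed in all 8 cultures, beside 5448 of all 16593 genes. Mmp13, the collagenase of bone, had the highest mean of the list, 12.83 ± 1.09 (SD, n = 8). It was followed by Col1a2, the second chain of type I collagen, at 12.62 ± 0.50, and Col1a1 at 12.30 ± 0.66.

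Sp7 encodes osterix, a transcription factor needed for osteoblast formation. Its log2 intensity was 11.86 in WT5, 11.97 in WT13, 12.03 in WT14, 11.71 in WT21, 11.57 in WT22, 11.11 in WT30, 11.35 in WT42 and 11.37 in WT44. The mean was 11.62 ± 0.33, the highest value was only 1.89 times the lowest on the linear scale, and the low end was WT30.

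Ibsp, bone sialoprotein, spread much further. It read 13.14 in WT5, 14.20 in WT13, 14.34 in WT14, 10.98 in WT21, 10.63 in WT22, 11.37 in WT30, 10.59 in WT42 and 10.26 in WT44. WT13 and WT14 were highest and WT5 came next, and the other 5 cultures lay below them with a gap of 1.78. The range was 16.9-fold, and the SD fell from 1.69 over 8 cultures to 1.04 without WT13 and WT14. A second Ibsp probe had the same 3 cultures on top, at 10.86, 12.92 and 12.62, against 8.09 to 9.86 elsewhere.

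Col1a1, the main chain of type I collagen, read 12.49 in WT5, 13.06 in WT13, 13.39 in WT14, 12.02 in WT21, 12.21 in WT22, 12.02 in WT30, 11.45 in WT42 and 11.74 in WT44. The order resembled that of Ibsp over a smaller range, 3.85-fold, and without WT13 and WT14 its SD was 0.36 in place of 0.66. The late osteoblast genes Bglap and Bglap2, both encoding osteocalcin, ran from 6.64 in WT21 to 10.20 in WT14 and from 7.02 in WT21 to 10.96 in WT14. These copies are nearly identical, so their probes may share signal. Alpl, the alkaline phosphatase that frees phosphate for mineral, ran from 8.43 in WT22 to 10.75 in WT14, and Pth1r, the parathyroid hormone receptor, from 7.33 in WT21 to 9.43 in WT13.

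Few osteocyte genes were above background in every culture. Of 6 measured, Pdpn (podoplanin), which other stromal cells also make, was the member above the ceiling in all 8, at 12.09 ± 0.51. Sost, the osteocyte inhibitor of Wnt signalling, was above it in none. Mepe, a matrix phosphoglycoprotein, was just above it in 6 of 8, from 6.52 in WT42 to 6.86 in WT14, Fgf23, the phosphate hormone of bone, in 3 and Dmp1, dentin matrix protein, in 1. Phex, an endopeptidase of phosphate balance, was above it in WT13 (7.26) and WT14 (7.48) and at 6.12 to 6.48 elsewhere.

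The stromal and matrix lists were nearly complete. Of 13 stromal genes 11 were above the ceiling in all 8 cultures, as were 15 of 18 matrix genes. Cxcl12, the chemokine that holds blood stem cells in marrow, had the highest mean of the stromal list, 12.39 ± 1.26, and ran from 10.85 in WT30 to 14.13 in WT13. Nt5e (CD73) and Pdgfra, a growth factor receptor of mesenchymal cells, were at 10.60 ± 0.60 and 9.73 ± 0.39. Lepr, the leptin receptor that marks marrow stroma in the adult mouse, was above background in none. In the matrix list Bgn was at 14.60 ± 0.20, while Postn (periostin) passed the ceiling in WT5 alone and Eln (elastin) in none.

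**Figure D1:**
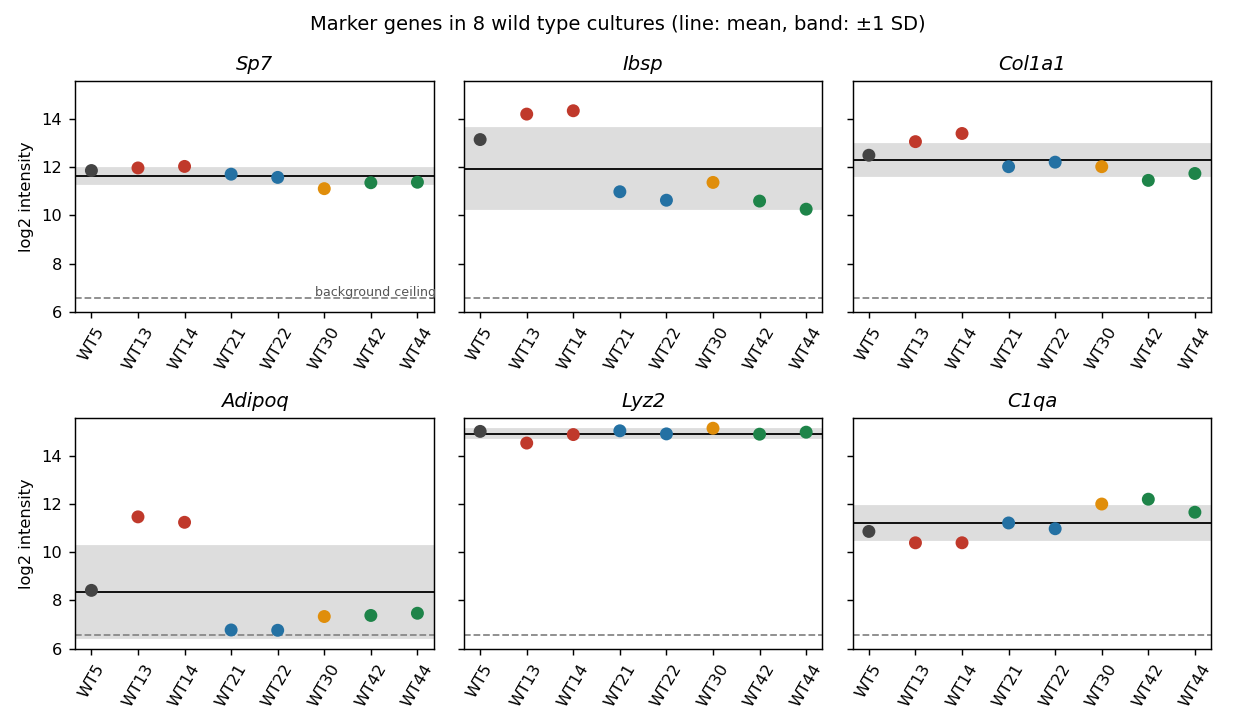
Log2 intensity of 6 marker genes (vertical axis) in each of the 8 wild type cultures (horizontal axis), 1 point per array, coloured by run of neighbouring title numbers. The black line is the mean, the grey band ±1 SD and the dashed line the mean background ceiling. Ibsp and Adipoq are highest in WT13 and WT14, Lyz2 lies near 15 in every culture, and C1qa is lowest in WT13 and WT14.

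Fat genes were present in part. Of 15 measured adipocyte genes, 7 were above the ceiling in all 8 cultures, which is 46.7% against the 48.0% of all genes. The list therefore held no larger share above background than the array as a whole. The 7 were Adipoq, Plin4, Pparg, Cebpa, Lep, Lpl and Mrap, and 3 more, Fabp4, Cidec and Thrsp, were above it in none.

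Adipoq encodes adiponectin, a hormone that mature fat cells secrete. It read 8.41 in WT5, 11.46 in WT13, 11.23 in WT14, 6.77 in WT21, 6.76 in WT22, 7.33 in WT30, 7.38 in WT42 and 7.47 in WT44. WT13 and WT14 lay 2.82 above the next culture, WT5, and the other 5 were between 6.76 and 7.47, close to background. The range was 26.0-fold over 8 cultures, and the SD of 1.92 became 0.60 without WT13 and WT14.

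Other genes of fat cells followed this order in part. The mean of the 15 fat genes was 8.17 in WT13 and 8.13 in WT14 against 7.47 to 7.65 elsewhere. Mrap, an accessory protein of the corticotropin receptor, was at 8.66 and 8.66 against 7.77 to 8.14. Car3, a carbonic anhydrase of fat and muscle, passed the ceiling in these cultures alone, at 6.83 and 6.94. Aqp7, the glycerol channel of fat cells, was also highest there (7.35 and 7.14, at most 7.002 elsewhere), as was Lep (leptin), from 6.60 in WT30 to 7.000 in WT13. The remaining genes differed in their order. Plin4, a lipid droplet coat protein, ran from 9.06 in WT44 to 10.81 in WT13, with WT13, WT14 and WT30 on top. Pparg, the master regulator of fat cell formation, was at 10.16 ± 0.29 and differed little, from 9.74 in WT44 to 10.49 in WT30. Lpl, the lipase that releases fatty acids from lipoproteins, was bright throughout at 13.43 ± 0.18, and it is made by macrophages as well. Fabp4, the fatty acid carrier of fat cells, read between 5.98 and 6.29, at background in every culture including WT13 and WT14. Plin1, the main coat protein of fat cell lipid droplets, passed the ceiling in WT14 alone, at 6.68. The array holds 1 probe for Fabp4 and 1 for Plin1.

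Macrophage genes were the most complete of the blood lineages. Of 17 measured, 14 were above the ceiling in all 8 cultures, with a median list level of 11.20 on the log2 scale. Csf1r, Cd68 and Mpeg1 of the list were not measured. Cx3cr1 passed the ceiling in 7 cultures, Fcer1g in 6 and Msr1 in none, with Msr1 between 6.03 and 6.20. Among genes shared by all leukocytes, 7 of 8 were above it in all cultures. Laptm5, a lysosomal membrane protein of blood cells, was at 14.18 ± 0.36 and Coro1a, an actin-binding protein of leukocytes, at 11.02 ± 0.31. Ptprc (CD45) was near background, from 6.56 in WT13 to 7.12 in WT44.

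Lyz2 encodes the lysozyme of macrophages and neutrophils. It read 15.002 in WT5, 14.52 in WT13, 14.87 in WT14, 15.03 in WT21, 14.90 in WT22, 15.13 in WT30, 14.89 in WT42 and 14.97 in WT44. The spread was small on this probe, which lies near the top of the scale, and WT13 was the low culture. The SD was 0.18 on this probe and 0.34 and 0.61 on the other probes of the gene. A second Lyz2 probe, which lies lower on the scale, ran from 13.46 in WT14 to 14.46 in WT44 with WT13 and WT14 as the lowest, and another from 6.73 in WT13 to 8.41 in WT44. Lyz1 and Lyz2 are near-identical neighbours, so the signal of either cannot be assigned with certainty.

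C1qa, C1qb and C1qc encode the chains of complement C1q, which tissue macrophages make. C1qa read 10.86 in WT5, 10.39 in WT13, 10.39 in WT14, 11.21 in WT21, 10.97 in WT22, 11.99 in WT30, 12.19 in WT42 and 11.65 in WT44. WT42, WT30 and WT44 were highest and WT13 and WT14 lowest, a 3.50-fold range. C1qb ran from 12.16 in WT13 to 13.71 in WT42 and C1qc from 12.12 in WT13 to 13.46 in WT30, each lowest in WT13.

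Receptors of macrophages followed with their own patterns. Adgre1 (F4/80) was highest in WT30, at 12.75, and Cd163, a scavenger receptor for haemoglobin, too, at 12.74 against 10.52 to 11.76 in the others. Mrc1, the mannose receptor, was lowest in WT5 (10.40) and not in WT13 or WT14. Cd14, the lipopolysaccharide co-receptor, was highest in WT22 (12.41) and lowest in WT30 (10.95). The mean over the 17 genes was lowest in WT13 (9.96) and WT14 (9.99) and highest in WT30 (11.44).

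Fcer1g, the signalling chain of immunoglobulin receptors, had the largest SD of all genes with a mean above the ceiling. It read 12.73 in WT5, 6.20 in WT13, 6.12 in WT14, 12.26 in WT21, 12.27 in WT22, 13.24 in WT30, 12.68 in WT42 and 12.20 in WT44. WT13 and WT14 were below the ceiling while the remaining 6 cultures were far above it. Its signalling relative Tyrobp, which serves as the adaptor of Trem2, was only moderately lower there, at 10.17 and 10.13 against 10.71 to 11.72. The array holds 1 probe for Fcer1g, so these low readings have no second probe to check them, and the sequence under the probe in these mice of mixed background was not checked. Without WT13 and WT14 the SD of Fcer1g was 0.40 in place of 2.98.

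Several other blood lineage lists had no gene above background throughout. No gene of the lymphoid lists was above the ceiling in all 8 cultures, out of 6 for B cells and 8 for T and natural killer cells, and none of 12 for dendritic cells and antigen presentation. Cd79a, Cd3d, Cd8a, H2-Aa and Cd74 were above it in no culture. None of 6 erythroid genes passed in all cultures. Hba-a1, an alpha globin with a nearly identical copy, ran from 6.32 in WT13 to 8.44 in WT22, and Hbb-bt, a beta globin, from 6.38 in WT14 to 7.38 in WT21. In the mast cell and basophil list only Mcpt8, a basophil protease, was above it in all, at 7.34 ± 0.32.

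Among megakaryocyte and platelet genes, Pf4, Ppbp and Treml1 were above the ceiling in all 8 cultures, which is 3 of 6 and close to the 48.0% of all genes. With a ceiling of 2 times the median of each array only 1 of the 6 was, beside 5448 of all 16593 genes. Pf4, platelet factor 4, was even across cultures at 11.76 ± 0.25. Ppbp, the platelet basic protein, was not, and read 8.34 in WT5, 6.75 in WT13, 6.73 in WT14, 10.24 in WT21, 9.71 in WT22, 6.84 in WT30, 9.47 in WT42 and 8.49 in WT44. WT21, WT22 and WT42 were high, and WT13, WT14 and WT30 were just above background. A second Ppbp probe had the same cultures high and low. Gp5 and Gp9, subunits of the platelet receptor for von Willebrand factor, were also highest in WT21 and WT22, at 8.41 and 8.68 for Gp5.

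Neutrophil genes were few. Of 14 measured, 4 were above the ceiling in all cultures, S100a8, Camp, Csf3r and Elane, and only S100a8 stood well clear of it. This share was 28.6%, against the 48.0% of all genes. S100a8, a calcium-binding alarmin, ran from 8.74 in WT44 to 10.75 in WT22. Of 10 osteoclast genes 4 passed in all cultures. Ctsk, the collagen-degrading cathepsin K, was at 12.76 ± 0.27 and was highest in WT14 and WT13. Calcr, Ocstamp, Dcstamp and Atp6v0d2, the receptor for calcitonin, both fusion proteins and a proton pump subunit of mature osteoclasts, were above it in none.

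Of 10 endothelial genes, Kdr, Emcn and Egfl7 passed in all 8 cultures, a smaller share than the 48.0% of all genes. Emcn, a sialomucin of venous and capillary endothelium, ran from 8.80 in WT13 to 12.04 in WT30. Pecam1 (CD31) was highest in WT30, at 7.996, and below the ceiling in WT13. No skeletal muscle gene of 6 passed in all cultures, and Myod1 passed in none. Of 10 cartilage genes only Col2a1, type II collagen, did, and it ran from 7.98 in WT44 to 11.08 in WT5 on 1 probe. A second probe was likewise highest in WT5 and lowest in WT42 and WT44. Acan (aggrecan) and Matn1 (matrilin) were at background, apart from Acan in WT22.

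**Figure D2:**
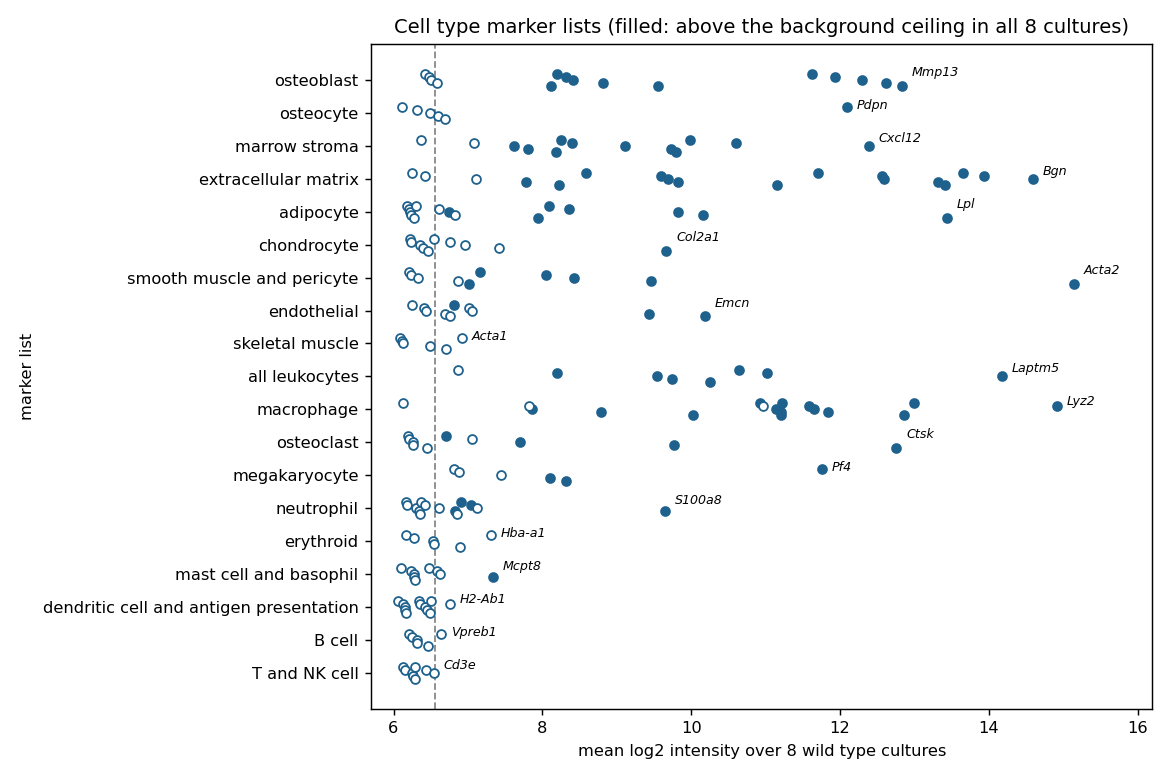
Mean log2 intensity over 8 wild type cultures (horizontal axis) of each measured gene of the cell type lists (vertical axis), 1 circle per gene, with the brightest gene named. Filled circles were above the background ceiling (dashed line) in all 8 cultures and open circles were not. Osteoblast, stromal, matrix, leukocyte and macrophage lists are mostly filled, and lymphoid, dendritic cell and erythroid lists hold no filled circle.

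Promoters of genes from the 3 lineages are shown because Ibsp and Adipoq were highest in WT13 and WT14, where C1qa, C1qb and C1qc were lowest. Among the other 6 cultures Adipoq and C1qa had an r of -0.11. The sequences are those of RefSeq on GRCm38.p6, from 250 bases before to 50 after the annotated start, 5′ to 3′ on the gene's strand. Capitals mark matches on either strand to 5 motifs. One is TATAAA, by which the basal transcription machinery is placed, and another is CCAAT, which general factors bind. The AP-1 factors are known for TGANTCA, the macrophage factor PU.1 for sites with the core GAGGAAG, and homeodomain factors for TAATTA. No match overlaps another. The Ibsp promoter lies at chr5:104299037-104299336 on the plus strand, Adipoq at chr16:23146286-23146585 on the plus strand, C1qb at chr4:136886151-136886450 and C1qc at chr4:136892865-136893164, both on the minus strand.
Ibsp: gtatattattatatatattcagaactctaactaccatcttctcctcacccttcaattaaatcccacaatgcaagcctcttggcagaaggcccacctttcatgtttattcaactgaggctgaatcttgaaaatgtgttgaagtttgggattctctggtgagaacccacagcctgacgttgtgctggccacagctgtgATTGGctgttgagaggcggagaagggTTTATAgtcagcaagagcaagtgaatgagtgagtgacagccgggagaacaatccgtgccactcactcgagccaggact
Adipoq: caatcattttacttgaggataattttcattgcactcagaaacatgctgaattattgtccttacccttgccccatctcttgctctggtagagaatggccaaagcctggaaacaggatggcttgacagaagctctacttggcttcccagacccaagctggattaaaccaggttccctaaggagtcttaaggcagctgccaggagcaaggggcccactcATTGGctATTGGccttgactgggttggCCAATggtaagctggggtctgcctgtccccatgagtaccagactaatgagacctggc
C1qb: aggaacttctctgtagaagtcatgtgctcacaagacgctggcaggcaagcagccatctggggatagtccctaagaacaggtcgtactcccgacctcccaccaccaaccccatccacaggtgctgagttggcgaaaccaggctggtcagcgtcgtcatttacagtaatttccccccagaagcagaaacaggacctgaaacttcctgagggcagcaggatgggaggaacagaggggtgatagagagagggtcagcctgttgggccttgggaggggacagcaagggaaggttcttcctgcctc
C1qc: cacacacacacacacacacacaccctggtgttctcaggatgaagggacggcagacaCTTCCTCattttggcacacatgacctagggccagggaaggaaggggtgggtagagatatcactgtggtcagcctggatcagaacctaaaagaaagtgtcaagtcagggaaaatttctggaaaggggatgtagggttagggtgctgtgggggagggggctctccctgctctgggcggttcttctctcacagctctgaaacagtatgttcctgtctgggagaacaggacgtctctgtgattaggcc

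The Ibsp window held the TATAAA letters on the minus strand from position -28, counted from the start, and CCAAT on the minus strand from position -54. The Adipoq window held CCAAT on the minus strand from positions -34 and -27 and on the plus strand from position -7, and no TATAAA. The C1qc window held GAGGAAG on the minus strand from position -194, and in the C1qb window none of the 5 motifs matched. Of 32851 RefSeq promoters of this length, 13.6% held the letters TATAAA and 37.4% held CCAAT. The AP-1 letters were found in 7.81%, while the PU.1 core was in 13.6% and the homeodomain letters were in 5.29%. These letters describe the windows and say nothing of which factors bound them in the cultures.

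Wide variation between cultures was limited to few genes. Among the 9094 genes with a mean above the ceiling, the median SD over 8 cultures was 0.19 on the log2 scale, and the median SD within runs was 0.13. Only 52 genes had an SD over 1. Among these 9094 genes, 1723 (18.95%) differed between runs by the limma F test at an adjusted p under 0.05, which measures only the spread between these arrays.

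**Figure D3:**
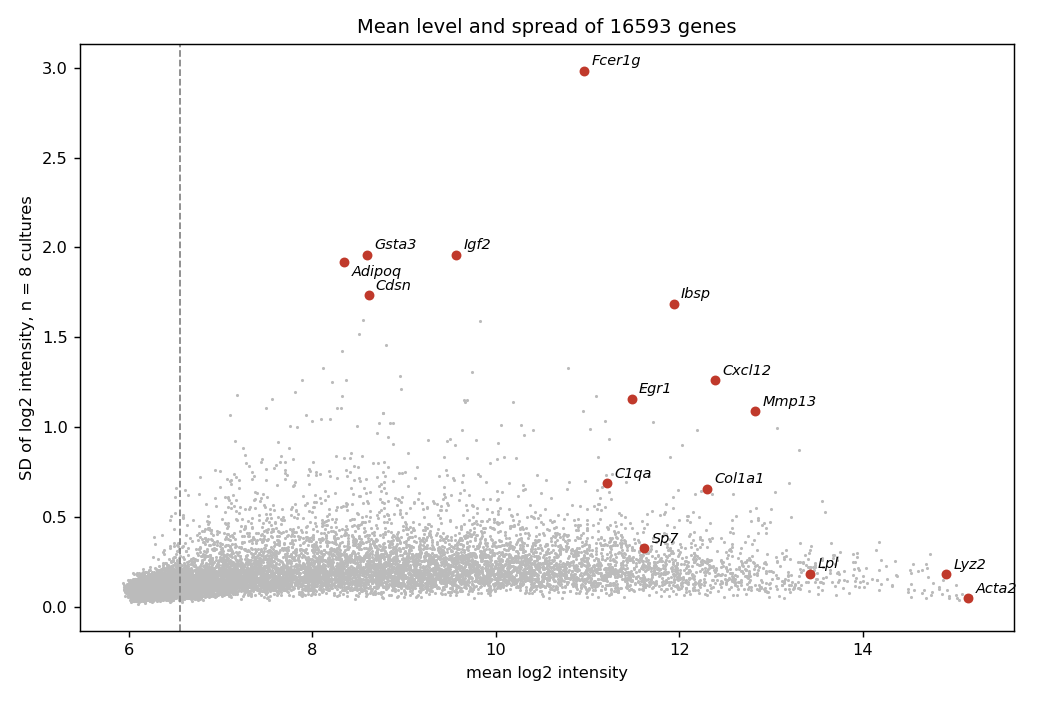
Mean log2 intensity (horizontal axis) against the SD over 8 wild type cultures (vertical axis) of each gene, 1 grey point per gene, with 15 genes in red. The dashed line is the mean background ceiling. Most genes lie below an SD of 0.5, Fcer1g is at 2.98, and Acta2 and Lyz2 are bright with an SD below 0.2.

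The 25 genes of largest SD were, from the top, Fcer1g, Gsta3, Igf2, Adipoq, Cdsn, Ibsp, Eif2s3y, Kng1, Mgarp, Bglap2, Ppbp, Hp, Bglap, Itm2a, Igfbp5, Fmo1, Cxcl12, Apcdd1, Dcn, Ptx3, Cldn10, Cx3cr1, Prss35, Omd and Nrn1. All 25 differed between runs, which describes how they were chosen, since their SD came from the same arrays. Without WT13 and WT14, 12 of the 25 remained among the 25 most variable, and 12 had an SD over 1. The SD fell most in Fcer1g, then in Adipoq and Eif2s3y (1.59 to 0.37), and to a smaller extent in Igf2 (1.96 to 1.44), Bglap (1.33 to 0.69), Dcn (1.25 to 0.54) and Cxcl12 (1.26 to 0.81). It rose in Cdsn (1.73 to 2.05), Igfbp5 (1.28 to 1.47) and Ptx3 (1.22 to 1.40).

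Igf2, the fetal growth factor that osteoblasts also store in bone matrix, read 10.06 in WT5, 12.02 in WT13, 12.08 in WT14, 7.38 in WT21, 7.23 in WT22, 7.68 in WT30, 9.92 in WT42 and 10.15 in WT44. It was high in WT13 and WT14, intermediate in WT5, WT42 and WT44, and low in WT21, WT22 and WT30. The same 3 levels were seen in Kng1, the kininogen that gives rise to bradykinin, from 8.11 in WT21 to 12.19 in WT13, and in Hp (haptoglobin), from 9.12 in WT22 to 12.44 in WT14. Mgarp, a mitochondrial protein, was also highest in WT13 (10.39), and its lowest culture was WT30 (6.65).

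Gsta3, a glutathione S-transferase of detoxification, read 8.44 in WT5, 6.13 in WT13, 6.16 in WT14, 7.91 in WT21, 7.95 in WT22, 10.33 in WT30, 10.92 in WT42 and 10.95 in WT44. It was below the ceiling in WT13 and WT14 and highest in WT30, WT42 and WT44. Cdsn, corneodesmosin, an adhesion protein known from skin, stood out in WT42 and WT44, at 11.10 and 11.28, against 7.002 to 8.84 in the others. Its second probe was also highest there. Igfbp5, which binds insulin-like growth factors, and Ptx3, a soluble pattern receptor, were highest in WT42 and WT44 too.

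Cxcl12 had the highest mean of the 25. WT13 and WT14 were at 14.13 and 14.08, and WT30 at 10.85. The small proteoglycans of matrix Dcn (decorin) and Omd (osteomodulin) ran from 6.83 in WT22 to 10.17 in WT13 and from 7.11 in WT22 to 10.09 in WT14. Nrn1, neuritin, was low in WT42 and WT44, at 9.49 and 9.31, and at 10.53 to 12.38 elsewhere.

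**Figure D4:**
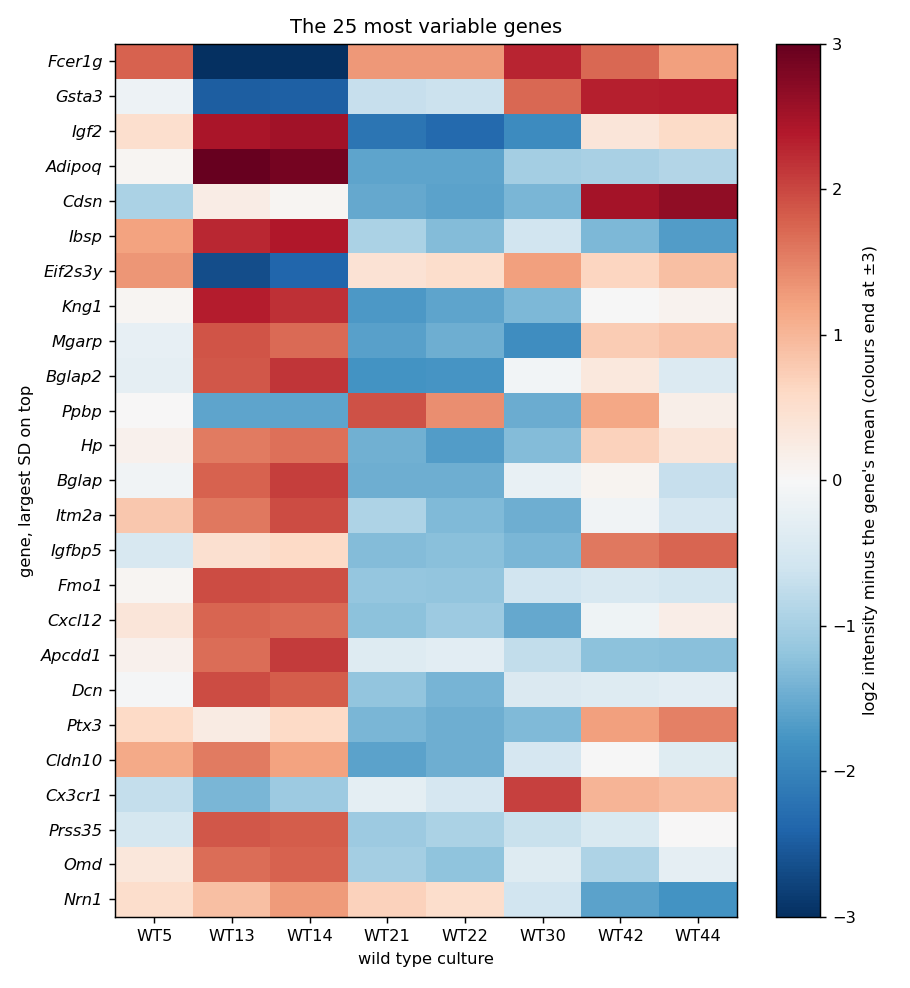
Difference of log2 intensity from the gene's own mean (colour scale) for the 25 most variable genes (rows, largest SD on top) in 8 wild type cultures (columns). WT13 resembles WT14, WT21 resembles WT22 and WT42 resembles WT44, and Igf2, Adipoq, Ibsp, Bglap and Dcn are high in WT13 and WT14 where Fcer1g, Gsta3 and Eif2s3y are low.

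The 200 genes of largest SD were then grouped by Pearson's r, with average linkage cut at a distance of 0.3. This gave 7 groups of at least 8 genes that held 188 of the 200, while 12 genes belonged to none. The first 3 principal components of these genes carried 60.4%, 25.2% and 9.19% of their variance. On the first, WT13 (0.58) and WT14 (0.59) lay at one end, WT21 (-0.299), WT22 (-0.296) and WT30 (-0.301) at the other, and WT5 near 0 (0.054). On the second, WT42 (0.55) and WT44 (0.57) lay opposite WT21 and WT22 (-0.41 each). On the third, WT30 was at 0.88 and the others between -0.25 and 0.092. Over the 6 cultures other than WT13 and WT14, the first 3 components of the same genes carried 57.5%, 24.2% and 15.3%. Since members of a group were gathered by likeness on these same arrays, the groups are a description. The first 6 genes of a group are named by a rule, and further members were named after their values were seen. Of the 188 genes, 186 differed between runs.

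The largest group, led by Igf2, Adipoq, Ibsp, Kng1, Mgarp and Bglap2, held 87 genes, 0.957% of the genes with a mean above the ceiling. Their mean deviation from each gene's own mean was 0.13 in WT5, 1.26 in WT13, 1.28 in WT14, -0.83 in WT21, -0.82 in WT22, -0.49 in WT30, -0.31 in WT42 and -0.22 in WT44. It took in 9 of the 15 osteoblast genes (Ibsp, Col1a1, Alpl, Bglap, Bglap2, Pth1r, Smpd3, Omd and Mmp13), 2 of the 15 fat genes (Adipoq and Plin4) and 4 of the 18 matrix genes (Col6a2, Dcn, Lum and Fmod). It also took in 5 of 10 interferon response genes, Isg15, Ifit3, Oasl2, Rsad2 and Usp18. Each list gene named here was highest in WT13 or WT14. The range of the group mean was 2.11 over 8 cultures and 0.95 without WT13 and WT14. Sp7 was not among the 200.

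Within that group the genes differed in their order among the other 6 cultures, also within the osteoblast list. Ibsp was higher in WT5 than in WT42 or WT44, as were Mmp13 and Col1a1, whereas Bglap2 was at 8.54 in WT5, 9.13 in WT42 and 8.39 in WT44. Pth1r was at 8.32, 8.82 and 8.45 in the same cultures. Rsad2 (viperin), an antiviral protein, was at 9.07 and 9.23 in WT13 and WT14, at 8.84 in WT5 and at 7.26 to 7.999 in the other 5. Isg15, a ubiquitin-like modifier, ran from 6.91 in WT30 to 9.11 in WT14. Of the interferon list, Ifit1 and Mx1 were above the ceiling in none and Bst2 was even, at 9.74 ± 0.16.

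A group of 33 genes was low where the largest group was high, in WT13 and WT14, although WT21 and WT22 were below the mean in both. It was led by Gsta3, Cx3cr1, Ednrb, Slc40a1, Pla2g7 and Slco2b1 and held 5 of the 17 macrophage genes, C1qa, Cx3cr1, Aif1, Ms4a7 and Cd163. Its mean deviation was -0.52 in WT5, -0.83 in WT13, -0.89 in WT14, -0.27 in WT21, -0.21 in WT22, 1.09 in WT30, 0.76 in WT42 and 0.86 in WT44. WT30, WT42 and WT44 were high, WT13 and WT14 low, and the other 3 between. The range of this mean was 1.97, and 1.60 without WT13 and WT14. Cx3cr1, the fractalkine receptor of resident macrophages, ran from 6.44 in WT13 to 9.86 in WT30. Slc40a1 (ferroportin), the iron exporter, ran from 9.81 in WT14 to 13.02 in WT30, Ednrb, an endothelin receptor, from 6.95 in WT14 to 10.01 in WT44, and Ms4a7, a membrane protein of macrophages, from 10.35 in WT5 to 12.47 in WT44.

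The Fcer1g group of 18 genes was low in WT13 and WT14, where its mean deviations were -1.45 and -1.42, and highest in WT21 (0.80) and WT22 (0.71). The range of its mean was 2.25, and 0.55 without these cultures. After Fcer1g it held Eif2s3y, Ppbp, Clec4n, Slamf9 and Gclm. It mixes genes of different kinds. Clec4n (dectin-2) and Marco are receptors of macrophages, Ppbp and Gp5 are platelet genes, and Hba-a1 is a globin. Hmox1 and Blvrb degrade haem and its products, and Gclm and Slc7a11 serve glutathione synthesis. Hmox1, haem oxygenase, ran from 9.74 in WT13 to 11.91 in WT42, and Gclm, a subunit of glutamate cysteine ligase, from 9.42 in WT14 to 11.95 in WT30.

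The Cdsn group of 14 genes was high in WT42 and WT44, with mean deviations of 1.32 and 1.25 against -0.65 to -0.12. It held Igfbp5, Chac1, Nnmt, Taf6 and Ly6c1. Chac1, a glutathione-degrading enzyme of the stress response, was at 11.32 and 11.09, and at 8.97 to 9.36 elsewhere. Of the stress list, Ddit3 (CHOP), from 8.69 in WT30 to 10.46 in WT42, and Trib3, from 6.40 in WT21 to 7.76 in WT44, were highest in the same cultures, as was Asns, asparagine synthetase, from 11.68 in WT5 to 12.95 in WT44. The heat shock gene Dnajb1 was lowest in WT42, at 11.31. Taf6 was read by 1 varying probe, and its other probe above the ceiling had an r of -0.37 with it.

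The Nrn1 group of 12 genes was lowest in the same cultures, WT42 (-1.25) and WT44 (-1.26). It held Col2a1, Aqr, Ank, Mgp and Serpinb2. Ank, which moves pyrophosphate out of cells, and Mgp, matrix Gla protein, are known to restrain mineral deposition. Ank ran from 8.82 in WT44 to 11.54 in WT22 and Mgp from 11.63 in WT44 to 14.02 in WT14. The Aqr probe ran from 6.32 in WT42 to 9.01 in WT13, while the second probe of the gene differed little, from 6.87 to 7.36.

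The Cd207 group of 12 genes was highest in WT30, with a mean deviation of 1.52, and intermediate in WT21 (0.47) and WT22 (0.47). It held Emcn, 1 of the 10 genes of the endothelial list, beside Cd207 (langerin) and Vsig4, a complement receptor of macrophages. Ptprb, Flt1, Edn1, Mmrn2 and Notch4, also in the group, are known from endothelial cells but are on no list here and were picked out after their values were seen. Flt1, a receptor for vascular endothelial growth factor, was at 9.63 in WT30 and at most 8.12 in the others. Ptprb, the endothelial tyrosine phosphatase, ran from 6.45 in WT13 to 9.14 in WT30. The mean of the endothelial list was likewise highest in WT30, at 7.85 against 6.995 in WT13, although Kdr, a receptor for vascular endothelial growth factor, hardly varied and was lowest in WT30 (6.75). Without WT13 and WT14 the range of the group mean was 1.94 in place of 2.16, and in the groups of Cdsn, Nrn1 and Plac8 the range was set by other cultures and did not move.

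The Plac8 group of 12 genes was highest in WT21 (1.01) and WT22 (0.96) and lowest in WT44 (-0.85). It held Rgs16, Il11, Cxcl14, Ccl2 and H2-M1, with S100a8, S100a9, Wnt5a and Id1. Il11, a cytokine of stromal cells that promotes bone formation, ran from 7.02 in WT13 to 9.09 in WT21. Ccl2, the chemokine that draws monocytes, ran from 8.26 in WT44 to 10.56 in WT21. S100a9, the partner of S100a8, was below the ceiling in WT30, WT42 and WT44.

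**Figure D5:**
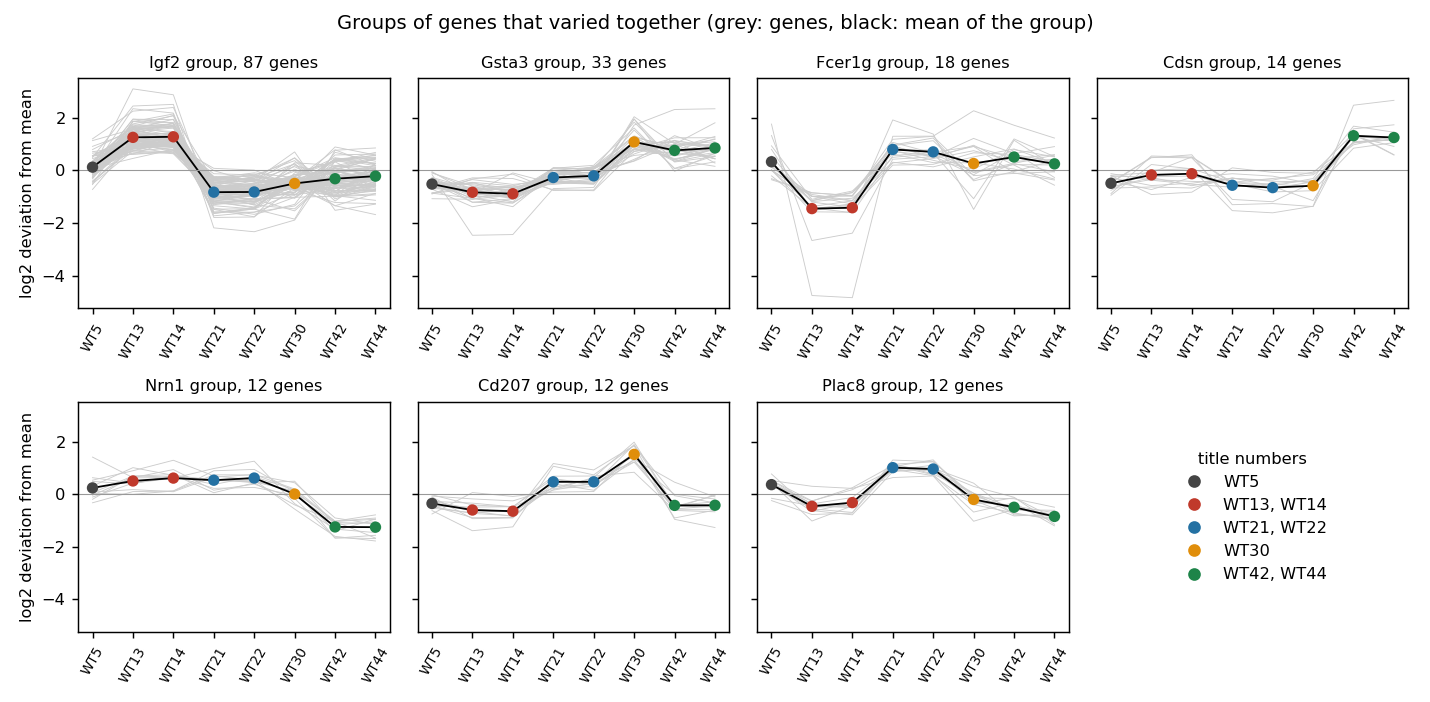
Deviation of log2 intensity from the gene's own mean (vertical axis) in 8 wild type cultures (horizontal axis) for the 7 groups of genes that varied together, each named by its most variable gene. Grey lines are genes, the black line is the mean of the group, and points are coloured by run of neighbouring title numbers. Both cultures of a run that holds a pair lie close together in most groups, while WT42 (-0.50) and WT44 (-0.85) lie further apart in the Plac8 group.

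Second probes gave a check of single genes. Of the 200, 60 had another probe above the ceiling, and in 44 of these every such probe had an r over 0.9 with the first, with a median of 0.96. The exceptions with the lowest r were Adam23 (-0.80), Taf6 (-0.37) and Aqr (0.56).

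Across the 6 marker genes, 15 pairs were compared by an exact permutation test of Pearson's r, two-sided, with Benjamini-Hochberg adjustment over the 15. Adipoq fell into separate clusters, so its 5 pairs used the 6 cultures other than WT13 and WT14. The tests treat the arrays as independent, although neighbours in title number resembled each other.

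Of the 15 pairs 4 passed, all between osteoblast genes or between an osteoblast gene and C1qa. Ibsp and Col1a1 had an r of 0.93 (exact permutation, adjusted p = 0.0094, Spearman's rho 0.90 with adjusted p = 0.0228), and Sp7 and Col1a1 0.83 (exact permutation, adjusted p = 0.0417, rho 0.81 with adjusted p = 0.0817). Sp7 and C1qa had -0.93 (exact permutation, adjusted p = 0.0094, rho -0.93 with adjusted p = 0.0228), and Col1a1 and C1qa -0.91 (exact permutation, adjusted p = 0.0094, rho -0.90 with adjusted p = 0.0228). Sp7 and Ibsp at 0.80 and Ibsp and C1qa at -0.80 did not pass (exact permutation, adjusted p = 0.0673 each). Neither did Lyz2 and C1qa at 0.57 (exact permutation, adjusted p = 0.208) on the Lyz2 probe near the top of the scale, whereas with the mean of all probes of each gene r was 0.90 (exact permutation, adjusted p = 0.00868).

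These relations rest in part on WT13 and WT14. Without them none of the 15 pairs passed after adjustment. With 6 arrays the test also has less power, so a lost call alone does not show that a relation rests on WT13 and WT14. Over the other 6 cultures r was 0.75 for Ibsp and Col1a1, 0.61 for Sp7 and Col1a1, -0.86 for Sp7 and C1qa and -0.84 for Col1a1 and C1qa, with unadjusted exact permutation p of 0.0958, 0.2, 0.0347 and 0.0306. Leaving out instead the 2 arrays farthest from the median of Sp7, WT14 and WT30, r was 0.93 for Sp7 and Col1a1 and -0.91 for Sp7 and C1qa. Leaving out the 2 farthest for Ibsp or Col1a1 removes WT13 and WT14 again. Within the 3 runs that hold a pair, Ibsp and Col1a1 differed in the same direction in 1, Sp7 and Col1a1 in 2, Sp7 and C1qa in 2, and Col1a1 and C1qa in 1, so that the pairs with C1qa differed in opposite directions in the remaining runs. Adipoq had an r of 0.76 with Ibsp over the 6 cultures (exact permutation, adjusted p = 0.208), which rests on WT5, and 0.25 with Sp7.

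The genes most like each marker were sought among the 400 most variable by Pearson's r over 8 cultures, as a description of arrays that share their runs. Fmo1, a flavin monooxygenase, and Adamts4, an aggrecan-degrading protease, came closest to Adipoq (r 0.997 and 0.995), followed by Serpina3n, Tspan8 and Qsox1. Adipoq fell into separate clusters, so its r over 8 cultures partly measures the gap between WT13 and WT14 and the rest. Without WT13 and WT14, r with Adipoq was 0.95 for Adamts4, 0.82 for Serpina3n, 0.86 for Tspan8 and 0.85 for Qsox1. Lss, lanosterol synthase of the cholesterol pathway, and Mmp13 came closest to Ibsp (0.99 and 0.98), followed by Kctd12, Capn6 and Lpcat3. Col1a1 had Scd2, a fatty acid desaturase, first (0.98), then Apcdd1, an inhibitor of Wnt signalling, Foxc1, Kctd12 and Gja1, the gap junction protein of osteoblasts. Without WT13 and WT14 the first of each stayed high, at 0.98 for Fmo1, 0.98 for Lss and 0.97 for Scd2.

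Sp7 was followed most closely by Rsad2 (0.95) and by Sox9, the cartilage factor (0.95), then by Sfrp2, Ccl12 and Tnc. C1qa was followed by Cxcl16 (0.98), a chemokine of macrophages, then Mfng, Tagln, Gmfg and Clec4a1. Lyz2, on the probe near the top of the scale, was followed by Cat (catalase) at 0.89, then Chil3, Sirpb1a, Bst1 and Clec4a3. Without WT13 and WT14, r with Lyz2 was 0.81 for Cat, 0.68 for Chil3, 0.61 for Sirpb1a, 0.60 for Bst1 and 0.40 for Clec4a3. Rsad2 then had 0.90 with Sp7, and Cxcl16 had 0.96 with C1qa. The gene of the 400 that ran most opposite to Sp7 was Mertk, the macrophage receptor for dying cells, at -0.99, and it stayed at -0.99 without WT13 and WT14. It was named after its values were seen. Mertk ran from 9.31 in WT13 to 10.77 in WT30, highest where Sp7 was lowest.

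Without WT13 and WT14 the range of the list mean was 0.78 in place of 1.77 for osteoblast genes, 0.80 in place of 1.48 for macrophage genes, 0.18 in place of 0.70 for fat genes and 0.54 in place of 1.05 for matrix genes. Of the lists, 13 of 15 osteoblast genes, 15 of 17 macrophage genes, 10 of 13 stromal genes and 7 of 8 leukocyte genes differed between runs, against 18.95% of the genes above background. The list counts include members at background, while the 18.95% covers only genes with a mean above the ceiling. The shares were 11 of 18 for matrix, 6 of 15 for fat, 5 of 6 for megakaryocytes, 6 of 10 for the interferon response and for stress, and 3 of 9 for the cell cycle. No member of the dendritic cell, B cell or T and natural killer cell lists differed between runs in the limma test, and 1 T and natural killer cell gene had an unadjusted p under 0.05. Only 1 of 12, 1 of 6 and 0 of 8 members of these lists had a mean above the ceiling. Values at background are compressed, so the test could hardly find a difference in these lists. Of the 9 cell division genes, 6 were above background in all 8 cultures, which is 66.7% against the 48.0% of all genes. The brightest were Cdc20, an activator of anaphase, at 11.48 ± 0.26 and Plk1, a mitotic kinase, at 11.30 ± 0.23. Ccna2 and Ube2c passed the ceiling in 6 cultures each and Bub1 in none.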

How the data were processed

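The 8 wild type arrays were read as probe intensities on a linear scale, which the authors deposited after normalization (medians and highest values are equal across arrays). The software, background treatment and any filters applied were not given in the sources used here. Intensities were log2 transformed (Python 3.11.15) and not normalized again. The lowest deposited value, 53.1, lies well above 0, so differences between dim probes are compressed. Of 25697 probes, 23978 carried 1 gene symbol in the platform annotation, 1719 are unnamed here and 23962 matched GRCm38.p6 RefSeq. Where a gene had several probes (4777 of 16593), the one with the highest mean stood for it.

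The 5 runs were compared with limma 3.58.1 in R 4.3.3 (lmFit, eBayes, F test, Benjamini-Hochberg over all probes), with residual error from 3 pairs. A p-value here reflects array-to-array spread alone, which may be technical. This fit was tested on simulated data of 25697 probes with 50 changed per size. The changed probes were brighter than the median and were shifted in WT13 and WT14 alone. The fit recovered 0% of log2 shifts of 0.25, 48% of 0.5, 98% of 1 and 100% of 2, with 16 false calls. Shifts in runs of 1 array and in dim probes were not tested. Marker pairs used exact permutation over 40320 pairings of 8 arrays or 720 of 6.

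Members and the 24 gene lists (268 genes, 233 measured) were chosen with earlier results of these data known. The naming rule took the 6 markers, the 20 genes of highest mean, the 25 of largest SD, the 5 most like each marker, up to 6 per group, and the first gene and the 4 brightest of each list. Other list members were named after their values were seen. Alternatives varied the ceiling, the probe rule, normalization, background, scale, the number of genes grouped, and the arrays.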

Additional observations from a re-analysis of the deposited data

Results flagged for a closer look

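Among 221 genes and list means, 8 (3.62%) had 1 culture far from the other 7 by Dixon's criterion for 8 samples, all of them single genes. Chance alone picks out about 1 in 20 when the 8 values are independent. Arrays of a run resembled each other, so a neighbour can mask a culture that departs, and the shares cannot be compared. In WT30, 3 genes were higher than in all other cultures, namely Flt1 at 9.635 (next 8.12), Egfl7 at 9.93 (next 9.53) and Acta1, skeletal muscle actin, at 7.65 (next 6.97). In WT42, 3 bright genes were lower than elsewhere, Rplp1 at 15.045 (next 15.16), Rps20 at 14.72 (next 14.89) and Ctsb at 14.49 (next 14.72). The Rplp1 probe was at the highest value of the scale in 5 arrays. In WT13, Lyz2 was low at 14.52 (next 14.87), as was Mylpf, a myosin light chain of skeletal muscle, at 6.16 (next 6.42), a value below background.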

How the results depend on the processing

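Over 433 recomputed values, 373 kept their direction and call or, for counts and SDs, stayed within a ratio of 1.5 to the main value. Another 38 moved, 13 lost and 9 gained a call, and no called value changed sign. With a ceiling of 2 times the median of each array, 5448 of all 16593 genes were above it in all arrays (7971 before). So were 6 osteoblast genes (11 before), 4 adipocyte genes (7 before) and 12 macrophage genes (14 before). Neutrophil and megakaryocyte genes were 1 each (4 and 3 before) and osteoclast genes 2 (4 before). The 400 most variable genes gave 11 groups (7 before). Leaving out 1 array at a time gave 8001 to 8058 genes above the ceiling, 11 to 11 osteoblast, 7 to 7 adipocyte, 14 to 15 macrophage and 0 to 0 lymphoid genes. The largest group of 87 genes held 56 with the lowest intensity subtracted plus 16, 56 with Spearman's rho, 52 without WT13 and WT14, and 35 to 103 with 1 array left out, fewest without WT13, then 39 without WT14 and 57 without WT5. Of the marker pairs, 10 passed with the mean of all probes, 0 without WT13 and WT14, and 2 to 6 with 1 array left out, 2 without WT42. Probes that differed between runs numbered 807 without WT13 and WT14, and 1217 to 5047 with 1 array left out, fewest without WT14 and most without WT44. A run that loses 1 of its arrays no longer adds to the residual error. The r of Sp7 and Col1a1 lost its call without any of WT5, WT13, WT14, WT21, WT22, WT42 or WT44, where r was 0.77 to 0.86, and that of Col1a1 and C1qa on the linear scale (-0.78) and without WT42 (-0.87). With the mean of all probes Lyz2 passed with C1qa (0.90), Sp7 (-0.88), Ibsp (-0.90) and Col1a1 (-0.92). Uncalled pairs changed sign in some settings, among them Ibsp with Lyz2 (0.37) and Col1a1 with Lyz2 (0.32) without WT13 and WT14, and Adipoq with Sp7 (-0.80), Ibsp (-0.20), Col1a1 (-0.72) and C1qa (0.86) without WT5. No paired analysis was possible because the 8 samples belong to 1 labelled group and the runs compared share no replicate numbers. The cause of these changes was not tested, and probes near the lowest intensity limit what can be said of dim genes.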
